A study of Homo sapiens with 7 samples.

Results

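Cholesterol synthesis and its control were followed through 27 genes of HEK-293 cells, chosen by symbol as the enzymes of the sterol pathway, the proteins that switch the pathway on and off, and the genes of cholesterol export. They were 27 of the 19978 genes in the deposited table. Of the 27, 26 passed the expression filter, as did 14863 genes in all, and ABCA1 did not. HEK-293 is an immortalized line of human embryonic kidney cells. RNA carrying a poly(A) tail was sequenced from 7 samples after 48 h. The control (2 samples) was kept at pH 7.4 with the solvent DMSO, and acidosis (3 samples) was acidified medium of pH 6.6, also with DMSO. The SRPIN340 group (2 samples) was kept at pH 7.4 with DMSO and 10 µM of SRPIN340, an inhibitor of the SRPK kinases that phosphorylate SR splicing factors. The comparisons asked how lasting acid medium, or loss of SR protein kinase activity at normal pH, changes transcript levels.

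Cells make cholesterol from acetyl-CoA through mevalonate, squalene and lanosterol. When sterols in the endoplasmic reticulum run low, the escort protein SCAP carries the membrane-bound factor SREBP2 to the Golgi apparatus, where it is cut and released to switch on the enzymes of the pathway. When sterols are plentiful, INSIG proteins hold SCAP back, and oxysterols activate the nuclear receptor LXR, which switches on cholesterol export. SREBP2 targets and LXR targets are therefore known to be controlled in opposite directions by sterols. In the text below, the SREBP2 side is the 18 synthesis enzymes with INSIG1, SREBF2 and STARD4 (21 genes), and the LXR side is ABCA1, ABCG1 and MYLIP (3 genes). SREBF1, SCAP and INSIG2 were put in neither.

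Stretches of promoter are shown for some of the genes the results turn on, picked to show letters shared by members that moved in opposite directions. All genes shown hold the CCAAT box described below. They come from RefSeq windows of GRCh38.p14 that run from 250 bases before a gene's start to 50 after it, and 23 of the 27 members had one (ACAT2, FDFT1, SQLE and ABCG1 did not). The capitals mark the CCAAT box (CCAAT, or ATTGG on the other strand), the letters read by the factor NF-Y, a known partner of SREBPs. The first 3 genes were at least 2.51-fold higher in acidosis. The HMGCS1 stretch was chr5:43313484-43313592 (minus strand), the IDI1 stretch chr10:1049200-1049359 (minus strand) and the INSIG1 stretch chr7:155297688-155297787 (plus strand).
HMGCS1: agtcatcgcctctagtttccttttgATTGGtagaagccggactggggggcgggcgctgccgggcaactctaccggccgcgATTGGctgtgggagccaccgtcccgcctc
IDI1: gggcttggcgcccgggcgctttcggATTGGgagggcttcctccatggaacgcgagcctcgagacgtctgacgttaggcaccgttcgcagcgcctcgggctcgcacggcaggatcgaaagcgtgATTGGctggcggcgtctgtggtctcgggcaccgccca
INSIG1: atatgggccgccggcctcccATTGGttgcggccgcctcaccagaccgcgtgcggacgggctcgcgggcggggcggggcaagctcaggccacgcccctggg

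The next 3 genes were at least 2.39-fold lower in acidosis. The NSDHL stretch was chrX:152830903-152830995 (plus strand), the MVK stretch chr12:109573579-109573758 (plus strand) and the TM7SF2 stretch chr11:65111757-65111826 (plus strand). In NSDHL the run CCAATTGG holds the box on both strands, overlapping.
NSDHL: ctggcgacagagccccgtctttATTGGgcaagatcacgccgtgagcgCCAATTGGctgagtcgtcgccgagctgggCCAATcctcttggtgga
MVK: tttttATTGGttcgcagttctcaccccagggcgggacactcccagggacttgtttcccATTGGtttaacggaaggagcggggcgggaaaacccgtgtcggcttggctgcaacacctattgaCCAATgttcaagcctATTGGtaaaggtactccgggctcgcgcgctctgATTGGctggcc
TM7SF2: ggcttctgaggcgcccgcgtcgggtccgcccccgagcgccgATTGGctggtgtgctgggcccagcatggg

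SREBF2 encodes SREBP2 itself, and its stretch, chr22:41832945-41833024 (plus strand), also has in capitals the letters CACCCCAC of a sterol regulatory element.
SREBF2: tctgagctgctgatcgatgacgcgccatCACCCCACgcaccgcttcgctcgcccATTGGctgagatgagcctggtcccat
A CCAAT box was found in 17 of the 23 member windows (73.9%), against 34.6% of all 35116 windows and 36.6% of the 11825 tested genes with a window. Member windows were those nearest the start of the gene's MANE reference transcript. For tested genes the first listed window was taken, and all windows include further starts of a gene. Shares here and below thus compare windows chosen in different ways. The CCAAT box was in 3 of 3 windows of members called higher in acidosis and in 4 of 5 windows of members called lower. PMVK, called lower, has a window without the box and is not shown. The GC box GGGCGG (or CCGCCC) was in 95.7% of member windows and 68.9% of those of tested genes. The letters CACCCCAC (or GTGGGGTG) were in the windows of SREBF2 and ABCA1 and in 2.79% of all windows. The E-box CACGTG, which may lie within either strand alike, was in 5 member windows (21.7%), against 9.82% of tested genes with a window. The DR4 form of the hormone receptor repeat, AGGTCA again after a gap of 4 bases on either strand, is known to be bound by LXR. It was in 0 of 23 member windows and in 0.0199% of all windows. A match of letters is a description of the window and not a measured binding site. All stretches shown lie before the RefSeq start, and in HMGCS1, INSIG1 and NSDHL the last bases also fall in the first exon of another GENCODE transcript. The whole MVK stretch lies within the GENCODE span of that gene, which starts at chr12:109573255.

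The authors deposited estimated counts per gene. Levels are given as CPM, the share of a gene in its library on the counts-per-million scale, with the library total adjusted by TMM, a factor that sets the typical gene equal between samples. Library totals lay between 13615816 and 24110460 counts, and all replicate pairs differed by more than sampling noise. Acid medium changed much of the transcriptome, so the scaling matters. When only total counts set the scale, the median over all tested genes moved by -0.57 (log2) in acidosis and by 0.04 with SRPIN340. Fold changes in acidosis are therefore relative to the typical gene, and the counts show neither the number of cells nor the RNA per cell. The HEK-293 markers VIM, KRT8, KRT18, NEFM and PAX2 were present in every sample (PAX2 at 1.19 to 7.06 CPM), and markers of blood, liver, endothelium, fibroblasts and astrocytes did not exceed 1.37 CPM. The samples are biological repeats by the study's methods, each run in replicates that the table holds as 1 column. A gene passed at a Benjamini-Hochberg adjusted p under 0.05 in edgeR's quasi-likelihood test, and was called when its log2 fold change was also beyond 1 in size. The counting floor was 3 counts per library.

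In acidosis the pathway did not move as a block. Of the 26 tested genes, 10 passed higher (32.5% of all tested genes did) and 11 passed lower (34.2% of all). With total-count scaling, 4 passed higher and 15 lower, as did 2413 and 8179 of the 14863 tested genes. HMGCS1, IDI1 and INSIG1 were called higher (14.4% of all tested genes were), while ACAT2, MVK, PMVK, TM7SF2, NSDHL and HSD17B7 were called lower (19.1% of all were). The median log2 fold change of the 26 genes was 0.124, beside -0.052 for all tested genes, and these genes ranged from -2.08 to 1.94. Among the 18 enzymes alone, 6 passed higher and 11 lower, with a median log2 fold change of -0.493. With TMM scaling, 10 and 11 of 26 are not far from the shares of all genes.

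**Figure D1:**
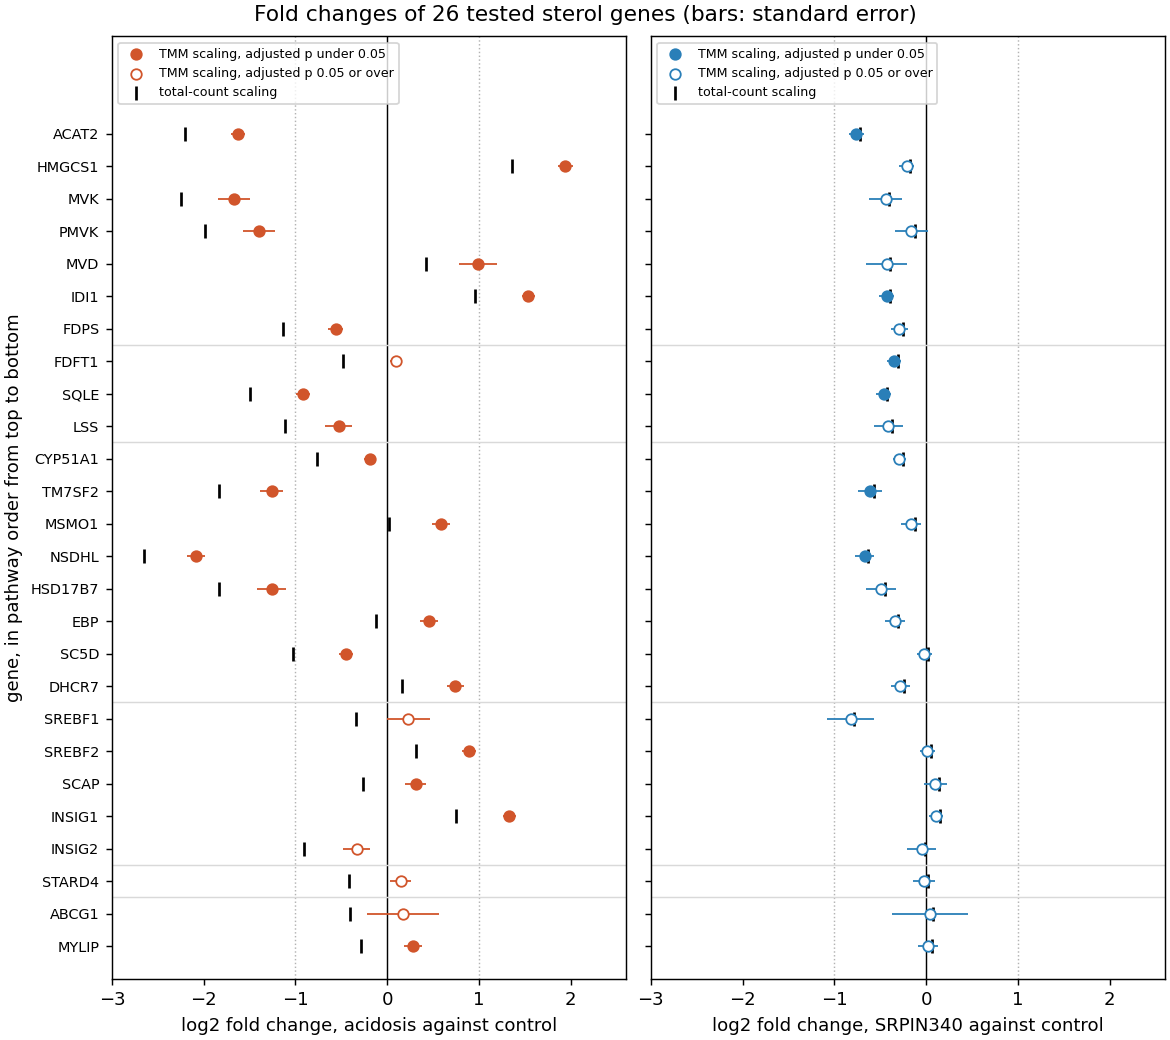
Log2 fold change of each of the 26 tested sterol genes (rows, in pathway order from top to bottom) in acidosis (left) and with SRPIN340 (right) against the same control samples. Circles are TMM-scaled values, filled where the adjusted p was under 0.05, with bars of 1 standard error, and black ticks are the values with total-count scaling. The acidosis values run from -2.08 for NSDHL to 1.94 for HMGCS1, while the 18 enzymes with SRPIN340 all lie below 0 with TMM scaling (SC5D is at 0.02 with total counts).

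The mevalonate steps held changes of opposite sign in neighbouring enzymes. ACAT2, the cytosolic thiolase that joins acetyl-CoA units at the entry of the pathway, was at 231 and 245 CPM in control, 139 and 143 CPM with SRPIN340, and 76.7, 82.7 and 71.8 CPM in acidosis. All acidosis samples lay below all control samples, with the SRPIN340 samples in between. The log2 fold change in acidosis was -1.63 (SE 0.0765, edgeR quasi-likelihood adjusted p = 1.12e-07). HMGCS1, the next enzyme, makes HMG-CoA and is a classical SREBP2 target. It was at 684 and 585 CPM in control, 560 and 539 CPM with SRPIN340, and 2430, 2560 and 2290 CPM in acidosis. The acidosis samples stood apart from the other 4, and the log2 fold change was 1.94 (3.83-fold, SE 0.0814, edgeR adjusted p = 5.71e-08). ACAT2 (chr6:159762045-159779112, GRCh38) shares 454 exonic bases with TCP1 and 133 with SOD2 on the opposite strand. Whether counting used strand is not given in the sources used here, so reads within these shared bases may not be told apart.

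MVK, mevalonate kinase, was at 20.0 and 24.6 CPM in control, 17.7 and 15.3 CPM with SRPIN340, and 7.48, 5.78 and 7.65 CPM in acidosis. PMVK, which adds the next phosphate, was at 11.6 and 14.2 CPM in control, 10.7 and 12.3 CPM with SRPIN340, and 5.17, 4.50 and 4.90 CPM in acidosis. For both kinases the acidosis samples lay below all others, with log2 fold changes of -1.67 for MVK (edgeR adjusted p = 1.74e-05) and -1.40 for PMVK (edgeR adjusted p = 6.03e-05). MVD, the decarboxylase that follows the kinases, went the other way. It was at 23.4 and 27 CPM in control, 21.2 and 16.2 CPM with SRPIN340, and 54.5, 36.5 and 59.2 CPM in acidosis. The groups did not overlap, and the log2 fold change of 0.99 (SE 0.203, edgeR adjusted p = 0.00171) fell just short of the limit of 1 and came to 0.42 (edgeR adjusted p = 0.0852) with total-count scaling. MVK (chr12:109573255-109598125) shares 225 exonic bases with MMAB on the opposite strand.

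IDI1, the isomerase that makes dimethylallyl diphosphate, was at 220 and 191 CPM in control, 156 and 150 CPM with SRPIN340, and 577, 594 and 614 CPM in acidosis. Its acidosis samples were the highest of all 7, with a log2 fold change of 1.54 (2.90-fold, edgeR adjusted p = 1.4e-07). FDPS, which builds farnesyl diphosphate and so closes the mevalonate steps, was at 173 and 198 CPM in control and at 132, 127 and 120 CPM in acidosis, a log2 fold change of -0.56 (edgeR adjusted p = 0.000196). Of the 7 enzymes of these steps, 3 thus passed higher and 4 lower.

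**Figure D2:**
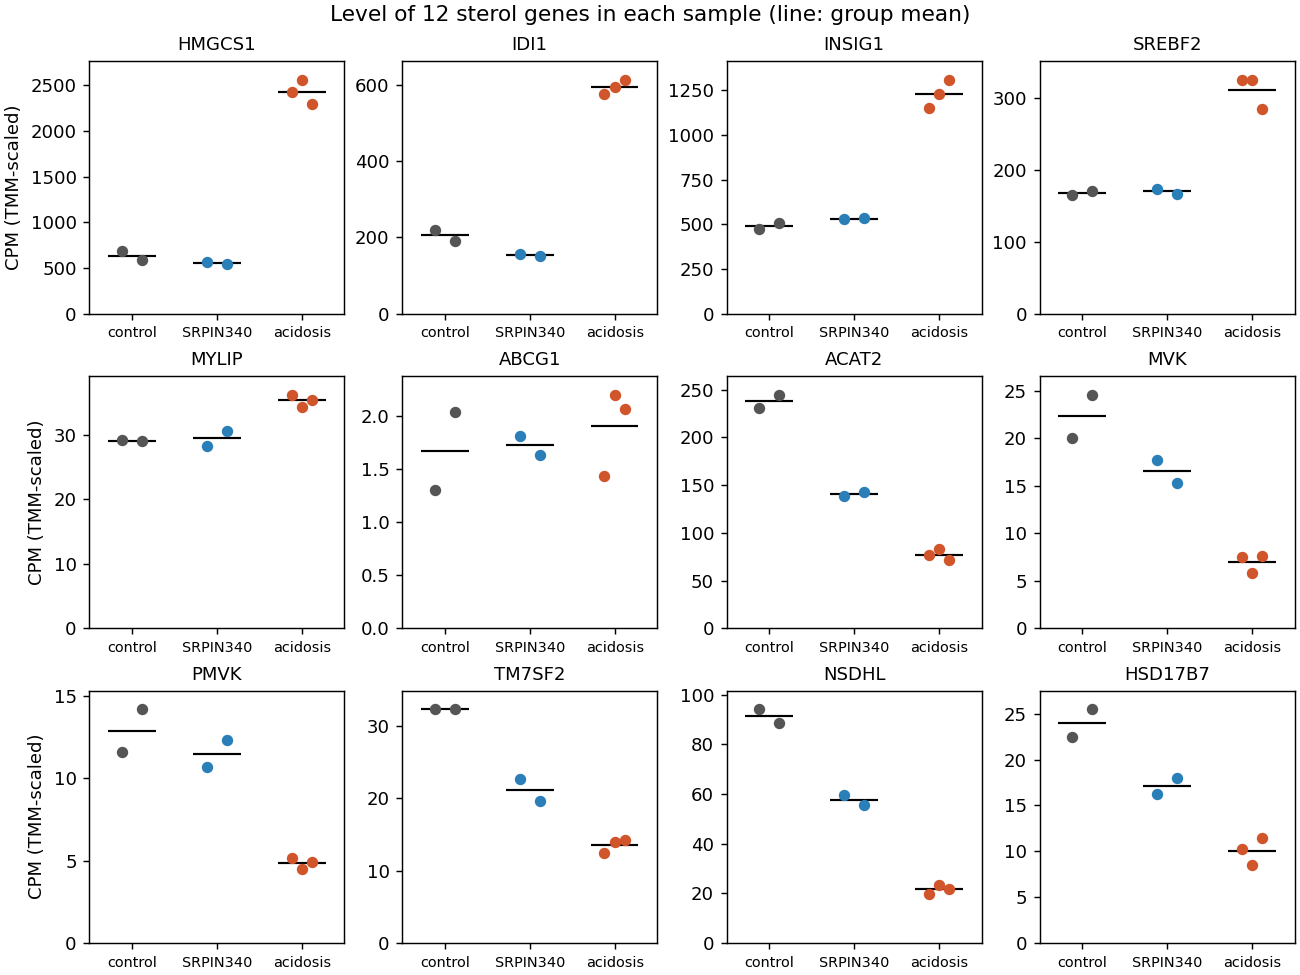
Level in CPM (TMM-scaled, linear axes from 0) of 12 sterol genes in each of the 7 samples, by group, with the group mean as a line. HMGCS1, IDI1, INSIG1 and SREBF2 are highest in the 3 acidosis samples, and ACAT2, MVK, PMVK, TM7SF2, NSDHL and HSD17B7 are lowest there, while the groups of ABCG1 overlap.

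Of the 3 enzymes of the squalene and lanosterol steps, 2 passed lower and 1 did not pass. FDFT1, squalene synthase, was at 211 and 216 CPM in control and at 220, 226 and 239 CPM in acidosis, with a log2 fold change of 0.0974 that did not pass (edgeR adjusted p = 0.218). With total-count scaling it was -0.48 (edgeR adjusted p = 9.83e-05), so its direction depends on the scaling. SQLE, the squalene epoxidase and a rate-controlling step, was at 151 and 143 CPM in control, 111 and 102 CPM with SRPIN340, and 76.2, 76.2 and 80.6 CPM in acidosis. Its acidosis samples were the lowest of the 7, and it fell by 0.92 on the log2 scale (edgeR adjusted p = 3.85e-06). LSS, lanosterol synthase, was at 102 and 125 CPM in control and at 89.6, 62.3 and 83.4 CPM in acidosis. It fell by 0.53 on the log2 scale (edgeR adjusted p = 0.00824), and without control replicate 2 the value was -0.40 (edgeR adjusted p = 0.0834).

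The 8 enzymes after lanosterol held the deepest fall of the pathway. NSDHL, which acts in the removal of the methyl groups at carbon 4 of the sterol ring, was at 94.2 and 88.8 CPM in control, 59.6 and 55.7 CPM with SRPIN340, and 19.8, 23.4 and 21.9 CPM in acidosis. The 3 groups did not overlap, and in acidosis the gene was 4.23-fold lower (log2 fold change -2.08, SE 0.0993, edgeR adjusted p = 1.21e-07). NSDHL lies at chrX:152830967-152869729. MSMO1, the oxidase that opens the same demethylation, was at 101 and 87.1 CPM in control and at 134, 134 and 158 CPM in acidosis, a log2 fold change of 0.59 (edgeR adjusted p = 0.000519). HSD17B7, the ketoreductase of that reaction series, was at 22.5 and 25.5 CPM in control, 16.3 and 18 CPM with SRPIN340, and 10.2, 8.45 and 11.4 CPM in acidosis. Its log2 fold change in acidosis was -1.26 (edgeR adjusted p = 6.08e-05), so the enzymes of a single reaction series moved in both directions. With total-count scaling the MSMO1 value was 0.02 (edgeR adjusted p = 0.890).

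TM7SF2, a sterol C14 reductase, was at 32.3 and 32.3 CPM in control, 22.6 and 19.6 CPM with SRPIN340, and 12.4, 14.0 and 14.2 CPM in acidosis. It was 2.39-fold lower in acidosis (edgeR adjusted p = 1.38e-05), and its groups did not overlap. CYP51A1, the lanosterol demethylase that acts just before it, was at 201 and 198 CPM in control and at 170, 177 and 179 CPM in acidosis. It fell by 0.19 on the log2 scale (edgeR adjusted p = 0.0217), the smallest change of a member that passed, and without acidosis replicate 1 the adjusted p was 0.0652 and without control replicate 1 it was 0.0801 (both edgeR). GENCODE also lists genes on the same strand that share exons with CYP51A1 and EBP, so their reads may be split.

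EBP, the isomerase that moves a ring double bond, was at 81.1 and 99.1 CPM in control and at 126, 116 and 129 CPM in acidosis, a log2 fold change of 0.46 (edgeR adjusted p = 0.00236) that was -0.12 with total-count scaling. SC5D, the desaturase of the next step, was at 149 and 139 CPM in control and at 98.2, 109 and 109 CPM in acidosis, and fell by 0.45 on the log2 scale (edgeR adjusted p = 0.000458). DHCR7, which reduces 7-dehydrocholesterol to cholesterol, was at 75.3 and 91.3 CPM in control, 69.3 and 67.7 CPM with SRPIN340, and 139, 144 and 134 CPM in acidosis. Its acidosis samples lay above all others, with a log2 fold change of 0.74 (edgeR adjusted p = 7.23e-05), which was 0.16 (edgeR adjusted p = 0.155) with total-count scaling. The 9 called genes kept their direction with total-count scaling and passed there too, with log2 fold changes of 1.36 for HMGCS1, 0.96 for IDI1 and 0.75 for INSIG1.

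With TMM scaling, the 3 genes of sterol sensing that passed were higher. SREBF2, the gene of SREBP2, was at 165 and 171 CPM in control, 173 and 166 CPM with SRPIN340, and 325, 325 and 284 CPM in acidosis. The acidosis samples stood apart from the other 4, with a 1.85-fold rise (log2 fold change 0.89, edgeR adjusted p = 5.29e-06). INSIG1, the anchor that is itself an SREBP2 target, was at 474 and 508 CPM in control, 528 and 533 CPM with SRPIN340, and 1150, 1230 and 1310 CPM in acidosis. It was 2.51-fold higher in acidosis (log2 fold change 1.33, SE 0.0692, edgeR adjusted p = 2.1e-07). INSIG2, the related anchor that is not driven by SREBP2 in the same way, was at 30.2 and 33.9 CPM in control and at 20.9, 26.9 and 28.7 CPM in acidosis. Its groups did not overlap, and its log2 fold change of -0.33 did not pass (edgeR adjusted p = 0.0663). Without acidosis replicate 3 it was -0.43 (edgeR adjusted p = 0.0349), and with total-count scaling it was -0.91 (edgeR adjusted p = 0.00032).

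SCAP, the escort protein, was at 45.6 and 50.6 CPM in control and at 59.7, 53.7 and 66.0 CPM in acidosis. Its log2 fold change of 0.31 passed narrowly (edgeR adjusted p = 0.0358), was -0.26 with total-count scaling and no longer passed without control replicate 1, control replicate 2, acidosis replicate 1 or acidosis replicate 3 (edgeR adjusted p of 0.211, 0.0661, 0.0619 and 0.102). SREBF1, which encodes SREBP1, the factor that favours fatty acid synthesis, was at 28 and 18.5 CPM in control, 12.7 and 13.6 CPM with SRPIN340, and 27.6, 34.7 and 19.8 CPM in acidosis. The control and acidosis samples overlapped, and the log2 fold change of 0.23 did not pass (edgeR adjusted p = 0.401). SREBF1 shares 556 exonic bases with RAI1 on the opposite strand. STARD4, a carrier of cholesterol between membranes, was at 98.6 and 92.5 CPM in control and at 95.3, 98.8 and 125 CPM in acidosis, with overlapping groups (log2 fold change 0.15, edgeR adjusted p = 0.268).

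The ratio of INSIG1 to INSIG2 within a sample does not depend on how libraries are scaled. On the log2 scale it was 3.97 and 3.90 in control, 4.16 and 4.03 with SRPIN340, and 5.78, 5.51 and 5.51 in acidosis. The acidosis samples lay 1.66 above the control samples on average, without overlap. An exact permutation test (two-sided) gave p = 0.2, which is the smallest p that 2 against 3 samples allow. The ratio of SREBF1 to SREBF2 was -2.56 and -3.21 in control, -3.76 and -3.61 with SRPIN340, and -3.56, -3.23 and -3.84 in acidosis. All treated samples lay below both control samples, by 0.66 on average in acidosis (exact permutation test, two-sided, p = 0.2, the smallest possible), although control replicate 2 and acidosis replicate 2 were close. Without control replicate 1 the difference was -0.34. These were the 2 ratios computed, and the Benjamini-Hochberg adjustment over them leaves both at 0.2.

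**Figure D3:**
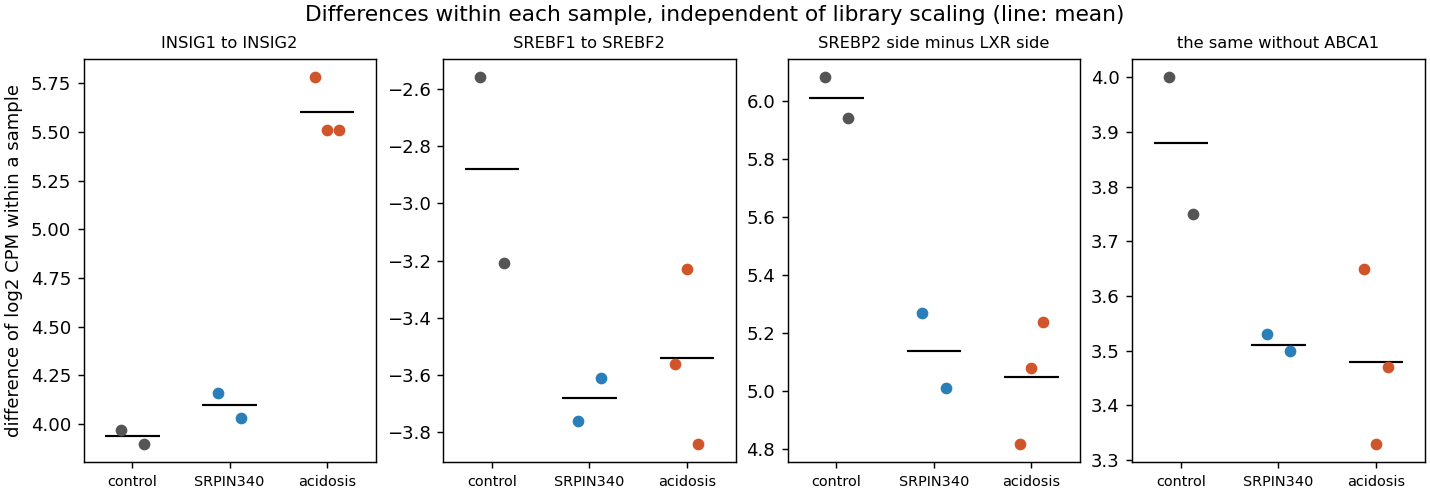
Differences of log2 CPM within each of the 7 samples (points, by group, with the group mean as a line, and axes that do not start at 0): INSIG1 to INSIG2, SREBF1 to SREBF2, and the mean of the SREBP2 side minus that of the LXR side, with and without ABCA1. INSIG1 to INSIG2 is 5.51 to 5.78 in acidosis and 3.90 to 4.16 elsewhere, and the SREBP2 side minus the LXR side is lower in acidosis and with SRPIN340 than in control.

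On the LXR side, the levels were low or changed little. ABCA1, the pump that loads cholesterol onto lipoproteins, had 1 and 1 counts in control, 4 and 7 counts with SRPIN340, and 10, 2 and 2 counts in acidosis. Both control libraries were under the counting floor of 3 counts, as were 2 of the acidosis libraries, so no fold is given. ABCG1, a related exporter, was at 1.30 and 2.04 CPM in control, 1.81 and 1.63 CPM with SRPIN340, and 1.43, 2.2 and 2.06 CPM in acidosis, with groups that overlapped throughout (log2 fold change in acidosis 0.17, SE 0.39, edgeR adjusted p = 0.713). MYLIP, a ubiquitin ligase of lipoprotein receptors, was at 29.1 and 29.0 CPM in control, 28.3 and 30.5 CPM with SRPIN340, and 36.2, 34.3 and 35.3 CPM in acidosis. It passed higher in acidosis by 0.28 on the log2 scale (edgeR adjusted p = 0.0293), but was -0.29 (edgeR adjusted p = 0.0223) with total-count scaling, so its direction depends on the scaling. It also no longer passed without acidosis replicate 1, control replicate 1 or control replicate 2 (edgeR adjusted p of 0.0608, 0.106 and 0.130).

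The sides were also compared within each sample, as the mean log2 CPM of the 21 SREBP2 side genes minus that of the 3 LXR side genes. The difference was 6.08 and 5.94 in control, 5.27 and 5.01 with SRPIN340, and 4.82, 5.08 and 5.24 in acidosis. It was thus lower than control by 0.96 on average in acidosis and by 0.87 with SRPIN340, without overlap, and no test was run on it. With the median over genes in place of the mean, it was 6.25 and 5.91 in control and 6.06, 5.60 and 5.82 in acidosis, so the groups overlapped and the difference was -0.25. Much of this rests on ABCA1, with its handful of counts: without that gene the difference was 4 and 3.75 in control, 3.53 and 3.50 with SRPIN340, and 3.65, 3.33 and 3.47 in acidosis, which is 0.39 below control in acidosis and 0.36 with SRPIN340. The median log2 fold change in acidosis was -0.188 over the SREBP2 side and 0.228 over the 2 tested genes of the LXR side, beside -0.052 for all tested genes, and with total-count scaling these were -0.763, -0.346 and -0.626. These medians hide the spread within the SREBP2 side, where 8 genes passed higher and 11 lower.

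**Figure D4:**
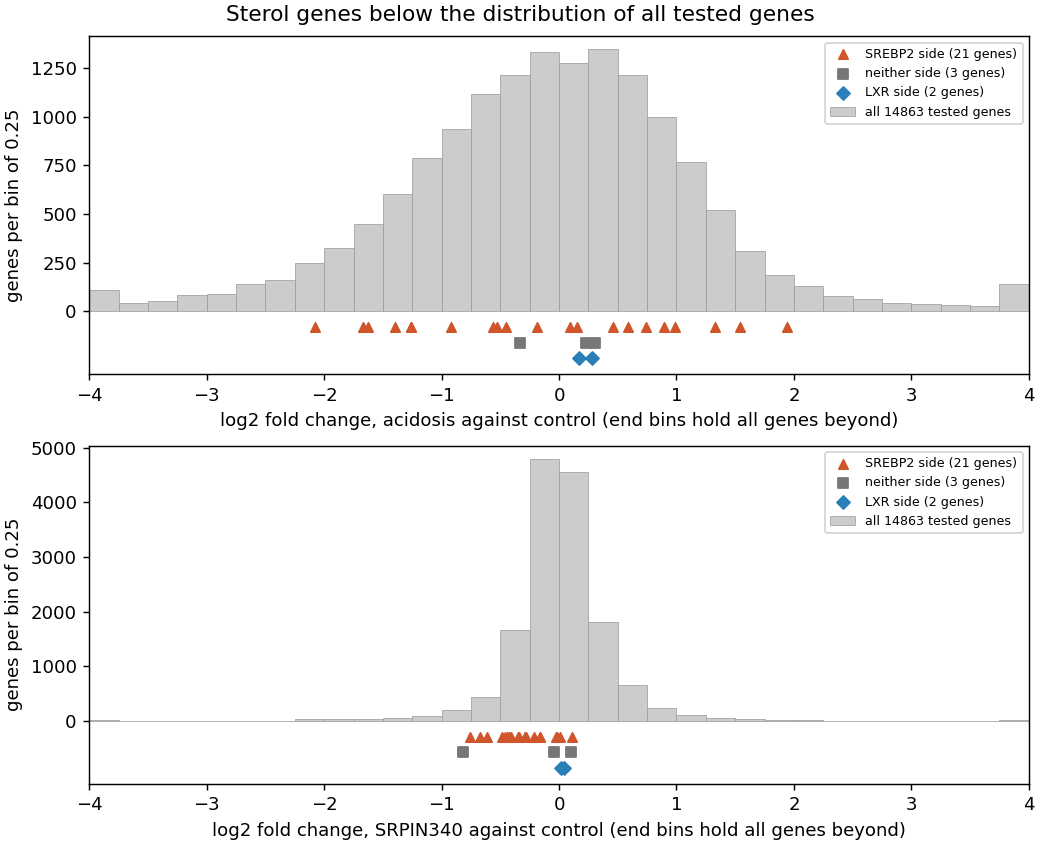
Histogram of the log2 fold changes of all 14863 tested genes (genes per bin of 0.25, with the end bins holding all genes beyond) in acidosis (top) and with SRPIN340 (bottom), with the sterol genes marked below 0 on the vertical axis by side. In acidosis the SREBP2 side genes spread from -2.08 to 1.94 across the distribution, and with SRPIN340 19 of those 21 genes lie below 0.

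With SRPIN340, 6 of the 18 enzymes fell by small amounts and the other 12 did not pass. This comparison shares its control samples with the one above. Of the 26 tested genes, 6 passed lower (1.53% of all tested genes did) and 0 passed higher (0.767% of all did), in edgeR's quasi-likelihood test. The 6 were ACAT2, IDI1, FDFT1, SQLE, TM7SF2 and NSDHL, and 0 members were called (0.323% of all tested genes were called in either direction). At an unadjusted p under 0.05, edgeR and DESeq2 each had 15 members lower and 0 higher, with 0 beyond the fold limit, where 9.48% (edgeR) and 9.29% (DESeq2) of all tested genes were lower and 8.15% and 6.72% higher. All 18 enzymes had a fitted log2 fold change under 0 (17 with total-count scaling, where SC5D was at 0.02), as did 7356 of the 14863 tested genes. Their median was -0.381, beside 0.002 for all tested genes, and in 16 of the 18 both SRPIN340 samples lay under both control samples, as they did in 26.8% of all tested genes.

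ACAT2 changed most among the enzymes, with a log2 fold change of -0.76 (1.69-fold lower, SE 0.0833, edgeR adjusted p = 0.00424). NSDHL followed at -0.67 (edgeR adjusted p = 0.0182) and TM7SF2 at -0.61 (edgeR adjusted p = 0.0498, which was 0.0504 with RLE size factors and 0.0607 with total counts). The falls of SQLE (-0.46, edgeR adjusted p = 0.0305), IDI1 (-0.43, edgeR adjusted p = 0.0329) and FDFT1 (-0.35, edgeR adjusted p = 0.0411) were smaller. For FDFT1 the samples were at 211 and 216 CPM in control and 172 and 162 CPM with SRPIN340, so its groups did not overlap, and with total counts it no longer passed (edgeR adjusted p = 0.0572). The other 12 enzymes did not pass and had values from -0.49 for HSD17B7 to -0.0211 for SC5D. HMGCS1 was among them, at -0.21 (edgeR adjusted p = 0.235), as were MVK at -0.44, MVD at -0.43 and LSS at -0.41.

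The count of 6 rested on all 4 samples. Without SRPIN340 replicate 1 or without SRPIN340 replicate 2, 0 members passed lower in edgeR, and 1 passed without control replicate 1 and 2 without control replicate 2, with 1 sample left in that arm and assumed to vary like the other groups. DESeq2 on all samples gave 10 genes, adding FDPS, CYP51A1, EBP and SREBF1. The sensing genes did not pass in edgeR with SRPIN340, and SREBF2 (0.0118), SCAP (0.0992), INSIG1 (0.11) and INSIG2 (-0.0461) had log2 fold changes near 0. SREBF1 had the lowest value of the members, -0.82 (SE 0.258, edgeR adjusted p = 0.14, DESeq2 adjusted p = 0.0341), and both SRPIN340 samples lay under both control samples. STARD4 (-0.022), ABCG1 (0.0443) and MYLIP (0.0186) did not pass either.

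The difference between acidosis and SRPIN340 was tested directly in the same fit, and this contrast does not use the control levels. Of the 26 genes, 11 passed higher in acidosis (32.8% of all tested genes did) and 9 lower (35.0% of all). HMGCS1, MVD, IDI1, DHCR7, SREBF1 and INSIG1 were called higher (14.9% of all were), and MVK, PMVK and NSDHL were called lower (19.7% of all were). HMGCS1 was 4.42-fold higher in acidosis than with SRPIN340 (log2 fold change 2.14, edgeR adjusted p = 3.67e-08) and IDI1 3.89-fold (1.96, edgeR adjusted p = 4.04e-08). NSDHL was lower still in acidosis than with SRPIN340 (log2 fold change -1.41, edgeR adjusted p = 1.34e-06). ACAT2 and TM7SF2 were also lower in acidosis than with SRPIN340, with log2 fold changes of -0.87 (edgeR adjusted p = 6.04e-06) and -0.64 (edgeR adjusted p = 0.00137). SREBF1 was 2.08-fold higher in acidosis than with SRPIN340 (edgeR adjusted p = 0.00357), a value that was 0.44 on the log2 scale (edgeR adjusted p = 0.131) with total-count scaling.

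The genes called in acidosis differed in transcript length, which is given as a description. The 3 called higher had MANE transcripts with a median of 2908 nt (2739 to 5350 nt) and the 6 called lower a median of 1553 nt (1002 to 2833 nt). The 17 members not called had a median of 3072 nt (1125 to 6854 nt). Over the tested genes with a MANE transcript, the medians were 2992 nt for 2083 genes called higher and 3619.5 nt for 2764 called lower. The part of length in these values was not tested.

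A further 64 genes around the pathway were listed by role, and 63 were tested. In acidosis 23 of them passed higher and 22 lower (all tested genes passed higher in 32.5% and lower in 34.2%). Of the 63, 9 were called higher and 11 lower (14.4% and 19.1% of all tested genes were). Their median log2 fold change was -0.079. With total-count scaling 10 passed higher and 40 lower, with 2 called higher and 22 lower. Of the 14863 tested genes, 2413 then passed higher and 8179 lower, with 815 called higher and 5202 lower. RNF139 (0.97), CYB5R3 (0.64), FASN (0.45) and LPIN1 (0.72), named next, were no longer called with that scaling. The counts by list that follow are with TMM scaling unless stated. In the list of SREBP cleavage and degradation in the endoplasmic reticulum (10 genes), 5 passed higher and 2 lower. MBTPS1, the site-1 protease that makes the first cut in SREBPs, was at 186 and 190 CPM in control, 185 and 188 CPM with SRPIN340, and 67.0, 63.1 and 63.5 CPM in acidosis (log2 fold change -1.54, edgeR adjusted p = 6.81e-08). The acidosis samples stood far below the other 4. RNF139, a ubiquitin ligase of the endoplasmic reticulum, was called higher (1.55).

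Of the 8 helpers of sterol synthesis, 5 passed higher and 1 lower with TMM scaling, and 1 higher and 5 lower with total-count scaling. CYB5R3, the reductase that feeds electrons to cytochrome b5, rose by 1.22 on the log2 scale (edgeR adjusted p = 1e-06), and TMEM97, the sigma-2 receptor, fell by 1.70 (edgeR adjusted p = 1.2e-07). Among 12 genes of sterol transfer and storage, 4 passed higher and 5 lower. SOAT1, which esterifies cholesterol for storage, was at 71.0 and 70.3 CPM in control and at 20.7, 24.9 and 32.2 CPM in acidosis (log2 fold change -1.46, edgeR adjusted p = 1.92e-05), and GRAMD1B (-1.77) and STARD5 (-1.52) were also called lower. STARD5 shares 4351 exonic bases with IL16 on the opposite strand. In the isoprenoid branch (12 tested), 3 passed higher and 4 lower, and PGGT1B (-2.22) and FNTB (-1.06), subunits of protein prenyl transferases, were the 2 called. Of 4 oxysterol genes, CYP7B1 passed lower (-1.51).

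Of the 8 LXR receptors, partners and targets, 2 passed higher and 5 lower. RXRB, a partner of LXR, rose by 1.63 on the log2 scale (edgeR adjusted p = 7.19e-06), while LPCAT3, a known LXR target, fell by 1.67 (edgeR adjusted p = 9.85e-06). LPCAT3 shares 3096 exonic bases with EMG1 on the opposite strand. Of the 9 fatty acid targets of SREBP1, 4 passed higher and 4 lower, with FASN, fatty acid synthase (1.03), and LPIN1, a phosphatidate phosphatase (1.30), called higher. With SRPIN340, 5 of the 63 genes passed (0.767% of all tested genes passed higher and 1.53% lower). They were CYB5B (-0.38), ACLY (-0.37), SCD (-0.43) and FADS2 (-0.72), which were lower, and RNF145 (0.52), which was higher. They were picked out because they passed, and 3 of them are fatty acid genes: FADS2, a desaturase, was at 239 and 237 CPM in control and 145 and 145 CPM with SRPIN340 (edgeR adjusted p = 0.00225).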

How the data were processed

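Poly(A) RNA was sequenced from 7 HEK-293 samples. The authors trimmed reads with Trimmomatic 0.39 and Trim Galore 0.6.6, ran Salmon 1.5.1 on GRCh38 transcripts and used tximport for gene totals. The values as deposited by the authors are estimated counts, often fractional. The tximport option is not given in the sources used here, so whether they hold any scaling is not known. After rounding, edgeR 4.0.16 (R 4.3.3) fitted all 7 samples together without a covariate, by its quasi-likelihood test with TMM and filterByExpr. DESeq2 1.42.0, the study's tool, was an alternative. CPM use TMM-scaled totals, with a prior count of 1 on the log2 scale within samples. Standard errors come from the test statistic. Other alternatives were RLE size factors, total counts, the filter (none, or a mean of 6 CPM), the 2 groups compared only, a replicate block and each replicate left out. The tests were checked on simulated counts in which few genes changed. That setting does not cover acidosis, where much of the transcriptome changed. Of 19978 genes, 19977 matched GENCODE release 44. Motifs were searched with Python 3.11.15. The members and lists were chosen with earlier results of these data known. All 27 members are accounted for. Of each further list, at most the 3 called genes with the largest change in acidosis and a mean of at least 1 CPM were named, and genes that passed with SRPIN340 were added after their values were seen. Groups come from the sample labels. Some genes of the pathway are not reported here.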

Additional observations from a re-analysis of the deposited data

How the results depend on the processing

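With 2 or 3 samples a group, small changes are measured loosely, and RNA per cell was not measured. The calls in acidosis depend most on scaling. With total-count scaling, 4 members passed higher and 15 lower in acidosis, 1 was called higher and 10 were called lower. Of the 14863 tested genes, 2413 passed higher and 8179 lower there, with 815 called higher and 5202 lower. Against SRPIN340, 6 members passed higher and 16 lower, with 2 called higher and 8 called lower. Of all tested genes, 2349 passed higher and 8450 lower in that contrast, with 775 called higher and 5505 lower. The log2 fold change in acidosis then turned to -0.48 for FDFT1, -0.12 for EBP, -0.34 for SREBF1, -0.26 for SCAP, -0.42 for STARD4, -0.40 for ABCG1 and -0.29 for MYLIP. Against SRPIN340 it turned to -0.16 for FDFT1, -0.52 for CYP51A1, -0.40 for SCAP, -0.44 for STARD4, -0.48 for ABCG1 and -0.35 for MYLIP. With SRPIN340 against control it turned to 0.02 for SC5D and 0.02 for STARD4. The total count carries no factor for the typical gene, whose median it shifts. With SRPIN340, 6 members passed lower in edgeR, 5 with RLE size factors, 4 with total counts, 10 in DESeq2, and 0 to 2 with a replicate left out. The deviations of samples of equal number from their group means had correlations of -0.111 to 0.0604 over all tested genes. Whether equal numbers share a batch was not tested. With the replicate number as a block, 1 member (ACAT2) passed lower with SRPIN340, and in acidosis 8 passed higher and 11 lower. With a replicate left out, values near 0 changed sign. They ranged in acidosis from -0.05 to 0.56 for SREBF1 and -0.12 to 0.52 for ABCG1, with SRPIN340 from -0.07 to 0.03 for SC5D, -0.01 to 0.04 for SREBF2, -0.01 to 0.20 for SCAP, -0.13 to 0.04 for INSIG2, -0.07 to 0.02 for STARD4, -0.24 to 0.40 for ABCG1 and -0.04 to 0.07 for MYLIP, and in acidosis against SRPIN340 from -0.23 to 0.02 for LSS. The SREBP2 side minus the LXR side was lower in acidosis by 0.96 as a mean. The value was -0.25 as a median over genes, where control and acidosis overlapped, and, chosen after seeing the data, -0.39 without ABCA1. The causes of these moves were not tested beyond what the settings themselves change. Over single members, 801 values kept direction and side of the threshold, 64 kept direction but no longer passed, 13 newly passed and 29 changed sign.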
